A study of Rattus norvegicus with 9 samples.

Results

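The libraries compared here are the 9 kidney cortex replicates of one treatment group, divided by their level of Nr1d1, the gene for the circadian repressor REV-ERB alpha. The members were chosen by that measured value in the deposited table. Libraries with an Nr1d1 value above 1000 formed the high group, with 3 members, and libraries below 300 formed the low group, with 6 members. Every one of the 9 libraries fell in one group or the other. The tissue came from ZDF fa/fa rats, an obese strain whose leptin receptor does not work and which becomes diabetic. All 9 libraries carry the labels diabetic and Medical Bypass, a treatment named in the study's title beside gastric bypass surgery. The study's stated aim was to profile kidney disease in this rat and what the treatment does to renal transcripts. Both Nr1d1 groups therefore share strain, diabetes, tissue and treatment, and no untreated, operated or lean group was used here. The labels give no drug, dose, sex, age or time of day, and nothing in them ties a replicate to an animal of its own.

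The clock of mammalian cells is a feedback loop of transcription factors. The activator pair CLOCK and BMAL1, the product of Arntl, binds E-box sequences and drives the Per and Cry repressor genes, Nr1d1, Nr1d2, Dbp, Tef and Ciart. REV-ERB alpha and beta then repress Arntl, Nfil3 and Cry1, and the ROR receptors act against them at the same sites. DBP, TEF and HLF activate D-box genes, and NFIL3 opposes them. In the kidney this loop is known to give daily rhythms to transport and metabolic genes. Arntl and Nr1d1 are accordingly high at opposite times of the day.

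Values are reads per gene divided by the size factor of the library, a correction for sequencing depth, and they are not corrected for gene length. Nr1d1 stood at 1309, 1321 and 1346 in replicates 1, 2 and 3, and at 110.1, 214.5, 172.3, 242.6, 122.9 and 143.2 in replicates 4 to 9. The libraries nearest the thresholds were thus replicate 1 at 1309 and replicate 7 at 242.6, and no library lay between. Because Nr1d1 chose the groups, and other clock genes move with it, differences between the groups are given as descriptions without p-values. A difference is the mean of log2(value + 1) in the high libraries minus that in the low libraries, with its standard error (SE) from limma over n = 3 and n = 6. This scale understates the change of genes with low values. A gene is called parted where every library of one group lies above every library of the other, and its gap is the fold between the nearest libraries of the 2 groups. The high libraries are replicates 1 to 3 and the low libraries replicates 4 to 9, and the sample numbers in the labels run in the same order, from 234 to 240 and from 247 to 263. Whatever those numbers stand for cannot be told apart from the Nr1d1 groups.

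Among the 13646 genes with a mean value of at least 10, 427 were parted, or 3.13% of genes. Of these, 163 were higher in the high Nr1d1 libraries, which is 1.19% of genes, and 264 were lower, which is 1.93%. In groups this small, some genes unrelated to the split also part, in either direction, through the chance order of the libraries. How many of the 163 higher and 264 lower genes did so was not tested. Scaled to the same total per library, the parted genes were 385 higher and 121 lower, and the median difference of all genes stood at 0.127 in place of 0.00357. Gaps of at least 1.5-fold were rare, with 17 genes or 0.125%, of which 5 were higher and 12 lower. For scale only, limma called 8 genes at an adjusted p under 0.05, or 0.0586%, with 793 at an unadjusted p under 0.05. Among them were Cry1, Arntl, Dbp and Ciart of the clock, and Ndrg1, Acot5 and ENSRNOG00000046831 outside it. On recovered reads edgeR called 3 genes and DESeq2 51. These counts are no evidence for the split, since a gene of the same loop made it.

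Of 26 listed clock genes 23 were compared, and 9 of the 23 were parted, or 39.1%, with 5 higher and 4 lower. Nr1d1 itself was left out. These genes belong to the same loop as Nr1d1, so nothing is read from that share.

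**Figure D1:**
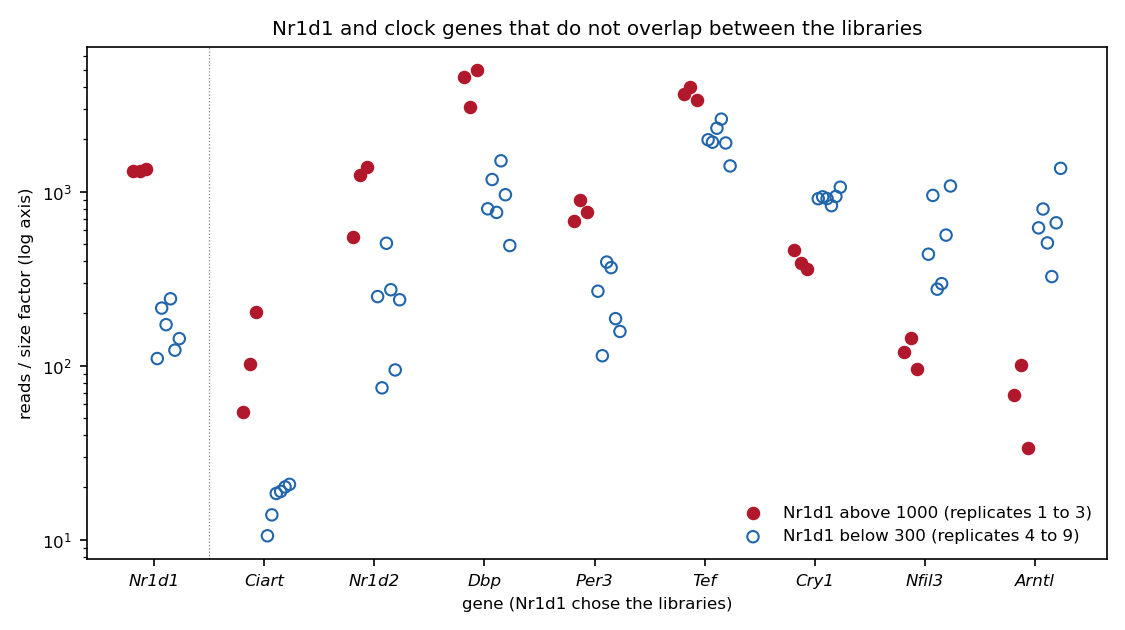
Value of Nr1d1 and of 8 parted clock genes in every library, in reads divided by the size factor on a log axis. Filled points are the 3 high libraries and open points the 6 low libraries. Dbp in the high libraries starts at 3061, above the low maximum of 1505, while Arntl in the high libraries ends at 101.0, below the low minimum of 325.

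Arntl, which encodes the BMAL1 activator, showed the widest gap of any gene. Its values were 67.9, 100.99 and 33.8 in the high libraries and 325 to 1363 (median 642) in the low libraries. The groups were parted by a gap of 3.20-fold, with a difference of -3.37 ± 0.42. Its partner Clock varied as much within the groups as between them, at 76.1, 260.2 and 241 in the high libraries and 47.6 to 471 (median 115) in the low. Npas2, which can replace Clock as the partner of BMAL1, overlapped too, with a difference of -0.74 ± 0.39.

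Of the repressors, Ciart, Per3 and Cry1 were parted. Ciart encodes a repressor of the CLOCK and BMAL1 pair. Its values were 54.5, 103 and 203 in the high libraries against 10.5 to 20.8 (median 18.7) in the low libraries. The highest low library lay 2.54-fold under the lowest high one, and the difference was 2.57 ± 0.38. Per3 stood at 682, 901 and 764 against 114 to 394 (median 227), a difference of 1.78 ± 0.36. Cry1, a repressor gene whose transcript is itself restrained by REV-ERB, went the other way, at 459.7, 391 and 360.3 against 832 to 1062 (median 924). The groups lay 1.81-fold apart at their nearest, with a difference of -1.21 ± 0.14. Per1 overlapped because replicate 3, at 1300, lay under replicate 8 of the low group, at 1385, while replicates 1 and 2 stood at 2172 and 2150. It was parted higher under the same total per library. Bhlhe41 had a difference of 1.03 ± 0.38 with overlap. Per2, Cry2 and Bhlhe40 overlapped with differences of 0.24, -0.10 and 0.04, and that of Cry2 stood at 0.03 after scaling to the same total.

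Among the nuclear receptors, Nr1d2, which encodes REV-ERB beta, followed its paralog Nr1d1. It measured 552, 1244 and 1391 in the high libraries and 74.7 to 506 (median 245) in the low. The groups barely parted, with a gap of 1.09-fold between replicates 1 and 6, although the difference was 2.31 ± 0.55. Rora, which encodes an opposing ROR receptor, overlapped, with a difference of 0.43 ± 0.41.

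Of the 4 D-box factors 3 were parted. Dbp measured 4546, 3061 and 4988 in the high libraries and 491 to 1505 (median 879.5) in the low libraries. The groups lay 2.03-fold apart at their nearest, with a difference of 2.20 ± 0.31. Tef was higher by less, at 3627, 4022 and 3364 against 1407 to 2614 (median 1958), with a difference of 0.88 ± 0.18. Nfil3, the opposing repressor, was lower at 120.3, 145 and 95.5 against 275 to 1079 (median 501), with a difference of -2.13 ± 0.42. Hlf, the third activator of this family, overlapped with a difference of 0.07 ± 0.25. The kinase and ligase genes that set the stability of clock proteins did not part. Csnk1d, Csnk1e, Fbxl21 and Btrc had differences from -0.05 to 0.23, and Timeless, in the same list, had -0.08.

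The 6 low libraries were not alike among themselves. Replicate 7 had the highest Nr1d1 of the 6, the highest Dbp at 1505, the highest Tef at 2614 and the lowest Arntl at 325. Replicate 9 had the highest Arntl at 1363, the highest Nfil3 at 1079, the lowest Dbp at 490.7 and the lowest Tef at 1407. Other clock genes did not keep this order. Replicate 6 had the highest Per3 at 394, the highest Nr1d2 at 506 and the lowest Nfil3 at 275 of the low libraries. Ciart was highest of the low libraries in replicate 9, at 20.8, and Nr1d1 was lowest in replicate 4, at 110.1. Within the high group, where Nr1d1 spanned 1309 to 1346, Ciart ran from 54.5 in replicate 1 to 203 in replicate 3 and Nr1d2 from 552 to 1391.

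Promoter sequence was read for the parted genes to show where the E-box motif CACGTG, the best known site of the CLOCK and BMAL1 pair, lies. Windows reach 250 bases before each listed start in RefSeq, build GRCr8, which is not the Rnor_5.0 build of the deposited files. Of 33469 listed windows 1872, or 5.59%, hold this motif on either strand, as do those of 8.47% of the 9555 compared genes matched to a window. Among the 9 parted clock genes 7 were matched to a window, and Ciart and Tef hold the motif, as does 1 of 2 listed starts of Nr1d1. The windows are shown because they carry the motif in genes that were higher in the high libraries, with the E-boxes in capitals.
Ciart (chr2:186112247-186112287, minus strand): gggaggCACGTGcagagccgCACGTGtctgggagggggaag
Tef (chr7:115206609-115206654, plus strand): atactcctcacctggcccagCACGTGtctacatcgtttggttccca
Nr1d1 (chr10:84229620-84229665, minus strand): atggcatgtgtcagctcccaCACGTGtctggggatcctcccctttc
Ciart holds 3 such motifs in its window, of which the pair nearest the start is printed. A match describes the letters only.

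Outside the clock lists, 418 of 13623 genes were parted, which is 3.07%, with 158 higher and 260 lower. Most of these parted narrowly. Their median gap was 1.05-fold, and 2 genes higher and 9 lower had a gap of at least 1.5-fold. The genes described next are among the 15 with the widest gap in each direction that carry a gene symbol. Their separation is thus the reason they are named. Genes with only a systematic name or a date were passed over, also where their gap was wider. Whether these genes part by more than the chance order of the libraries gives was not tested. The 15 lower genes had larger folds, from 1.77 to 5.82, than the 15 higher genes, from 1.38 to 2.21.

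**Figure D2:**
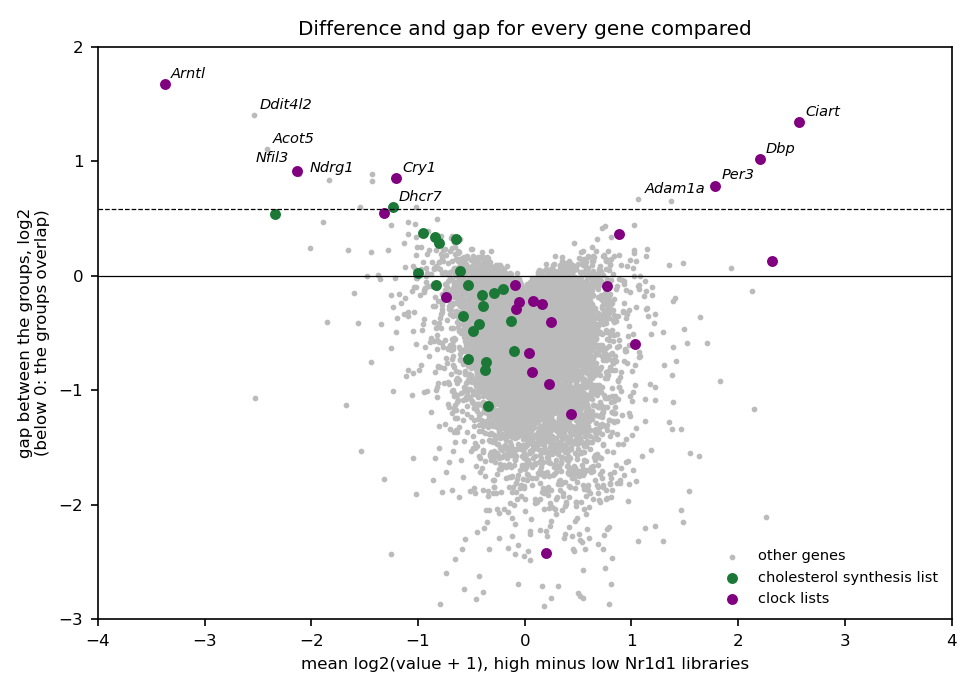
Difference between the groups, as mean log2(value + 1) in the high minus the low libraries, against the log2 gap between the groups for every gene compared. Points above the solid line do not overlap, the dashed line marks a gap of 1.5-fold, and 6 genes lie outside the axes. Arntl, Ciart and Dbp stand at the edges. Among other genes with a symbol, Ddit4l2 and Acot5 have the widest gaps on the lower side.

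Ndrg1 was the most abundant gene with a wide gap. It encodes a cytoplasmic protein known to be induced by low oxygen and cell stress. It measured 32892, 35829 and 36263 in the high libraries and 80504, 108924, 85837, 64595, 107329 and 135304 in replicates 4 to 9. Every low library lay at least 1.78-fold above every high one, and the difference was -1.43 ± 0.21. The standard deviation (SD) was 1834 among the high libraries and 25151 among the low, so the spread of the low libraries stayed under the difference of the means.

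Ddit4l2, a relative of the stress gene Ddit4, had the widest gap outside the clock. Its values were 30.8, 19.4 and 17.9 in the high libraries and 93.6, 289, 83.4, 91.8, 173 and 156 in replicates 4 to 9. The gap was 2.65-fold and the difference -2.54 ± 0.39, with 9 to 30 reads behind each high value. Acot5 belongs to a family of acyl-CoA thioesterases, which release fatty acids from coenzyme A. It stood at 12.3, 24.9 and 9.95 against 54.7 to 108 (median 84.9), a difference of -2.42 ± 0.32. Its close paralogs may share reads with it, so the level is uncertain, and the high values rest on 5 to 32 reads. Tp73, a transcription factor of the p53 family, stood at 32.9, 34.2 and 7.96 against 64.3 to 142 (median 97.7), a difference of -2.11 ± 0.42. Replicate 3, the shallowest library, gave its lowest value from 4 reads, and without that library the difference was -1.47.

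Other lower genes encode secreted or signalling proteins. Tsku, a secreted leucine-rich protein, stood at 768, 966 and 752 against 1339 to 2225 (median 1869), a difference of -1.09 ± 0.18. Ccl20, a chemokine that attracts cells bearing CCR6, ran from 9.95 to 47.3 in the high libraries and from 65.9 to 160 in the low. Its lowest value came from 5 reads, and the difference was -1.89 ± 0.43. Id2 encodes an inhibitor of helix-loop-helix transcription factors. It was evenly parted, at 3570.3, 4018 and 3179 against 5668 to 7027 (median 6328), with a difference of -0.83 ± 0.13.

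A metabolic enzyme was also among the lower genes. Gldc encodes the decarboxylase of the glycine cleavage system and measured 1302, 2091 and 1708 against 2843 to 5051 (median 4061), a difference of -1.25 ± 0.21. Replicate 1 was the lowest of the high libraries. Dhcr7 also had a wide gap and is described with cholesterol genes. Eepd1 and Lonrf3 had differences of -1.02 ± 0.18 and -0.91 ± 0.19. Acta1, the skeletal muscle actin, rested on 1 to 4 reads in the high libraries and 13 to 36 in the low, so no fold is given, and reads of other actins may be shared with it.

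**Figure D3:**
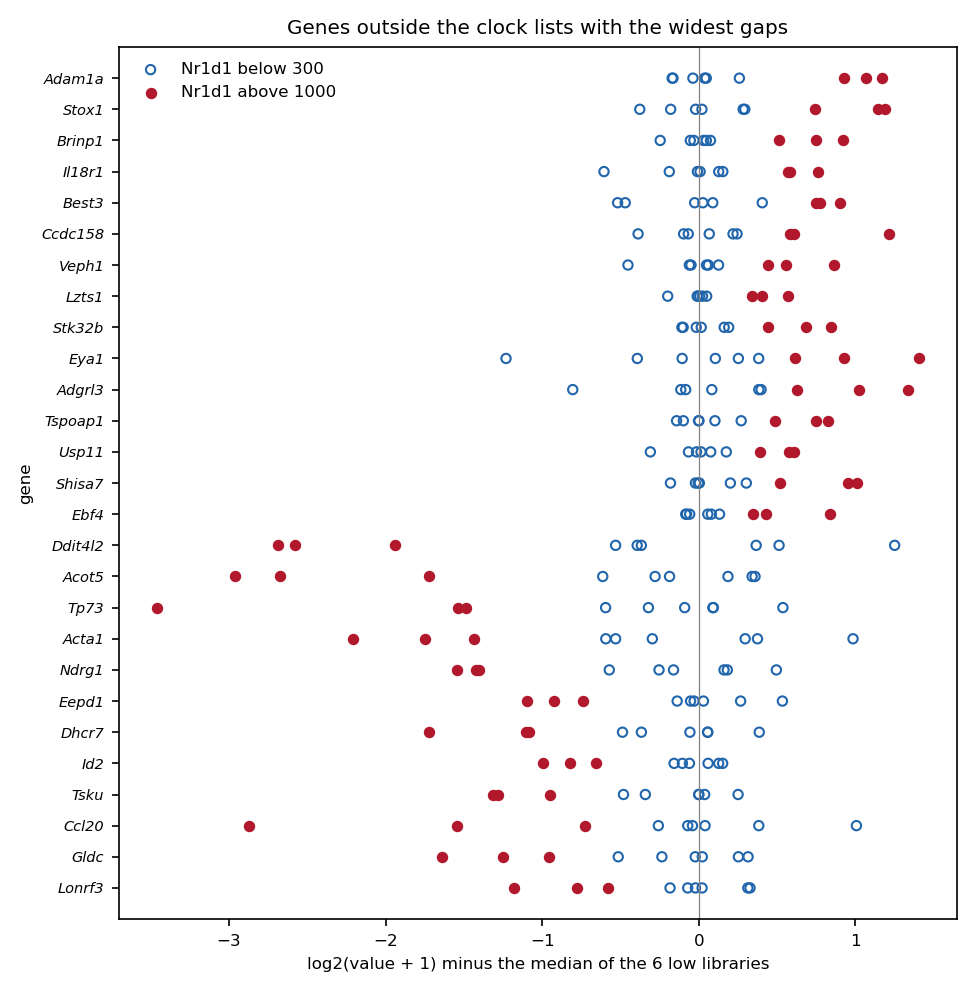
Log2(value + 1) in every library, minus the median of the 6 low libraries, for 27 genes outside the clock lists. They are among the genes with a symbol that had the widest gaps, 15 higher and 12 lower. Filled points are the high libraries and open points the low libraries. The lower genes reach further from the line than the higher genes, whose folds end at 2.21.

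The genes higher in the high Nr1d1 libraries were mostly of low abundance. In 11 of the 15 the mean of the high libraries was under 100, against 4 of the 15 lower genes by the same measure in the low libraries. Adam1a, a membrane protein of the ADAM family, had the widest gap of the 15, at 1.59-fold. It measured 46.3, 41.9 and 49.8 in the high libraries and 19.0 to 25.98 (median 21.5) in the low, a difference of 1.06 ± 0.22. Its values rest on 17 to 54 reads. Eya1, a transcriptional cofactor and phosphatase needed in kidney development, showed the largest fold of the 15 with a narrow gap. It stood at 31.9, 55.9 and 39.8 against 8.16 to 27.02 (median 20.55), a difference of 1.15 ± 0.37. Replicate 8, at 8.16, was lowest of all.

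The 4 more abundant higher genes were Usp11, Veph1, Stk32b and Brinp1. Usp11 encodes a deubiquitinating enzyme and measured 649.9, 739.5 and 756 against 399 to 559 (median 495), a difference of 0.55 ± 0.15. Veph1 stood at 459, 496 and 613 against 246 to 368 (median 337), a difference of 0.68 ± 0.17. Stk32b, a serine/threonine kinase gene, stood at 319.8, 242 and 287 against 165 to 203 (median 178), a difference of 0.63 ± 0.17. In these 3 genes the gaps were 1.16 to 1.25-fold. Brinp1 measured 118, 100.2 and 133 against 58.9 to 73.8 (median 70.1), with a wider gap of 1.35-fold. The others were the interleukin 18 receptor gene Il18r1, the bestrophin channel gene Best3, the transcription factor genes Stox1 and Ebf4, the adhesion receptor gene Adgrl3, and Ccdc158, Lzts1, Tspoap1 and Shisa7. Their differences ran from 0.46 for Lzts1 to 1.02 for Stox1 and Adgrl3. In Ccdc158, replicate 3 at 59.7 stood above the other high libraries at 38.1 and 38.8.

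Cholesterol genes were lower together in the high Nr1d1 libraries. Of 23 members compared, 8 were parted and all 8 were lower, which is 34.8% of the list beside 3.13% of all genes. All 23 had a difference below 0, with a median of -0.53, while 49.5% of all genes lay below 0. The list covers the mevalonate and sterol steps and the uptake and control genes, whose transcription is known to follow the transcription factor SREBP2. It was chosen with earlier results of these data known, so the count describes it only. Scaled to the same total per library, 22 of 23 stayed below 0 and the median was -0.41. Cholesterol members summed to between 24271 and 28117 in the high libraries and between 31977 and 46126 in the low.

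Dhcr7, which makes cholesterol from its last precursor, had a wide gap. Its values were 468, 463 and 301 in the high libraries and 709.8 to 1301 (median 996) in the low, a gap of 1.52-fold and a difference of -1.24 ± 0.22. Cyp51, which demethylates lanosterol, measured 1354, 1183 and 1680.1 against 2129.5 to 3573 (median 2211), a difference of -0.84 ± 0.20. Fdps, which makes farnesyl diphosphate earlier in the pathway, stood at 2546, 2253 and 2665 against 3243 to 6042 (median 4179.8), a difference of -0.80 ± 0.20. Msmo1 and Sqle, both oxygenases of sterol synthesis, had differences of -0.64 ± 0.16 and -0.60 ± 0.18. Hmgcs1 overlapped with -0.39 ± 0.19, and Mvd, with -0.83 ± 0.30, overlapped because replicate 1 at 270.4 lay above replicates 4 and 9 at 260.3 and 255.

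Of the control genes, Insig1, which holds back SREBP processing, stood at 1667, 1987 and 2763 against 2818 to 5878 (median 4387), with a difference of -1.004 ± 0.26. Its gap was 1.02-fold only, and it and Sqle overlapped when libraries were scaled to the same total. Srebf2, the SREBP2 gene, overlapped with a difference of -0.13 ± 0.16.

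**Figure D4:**
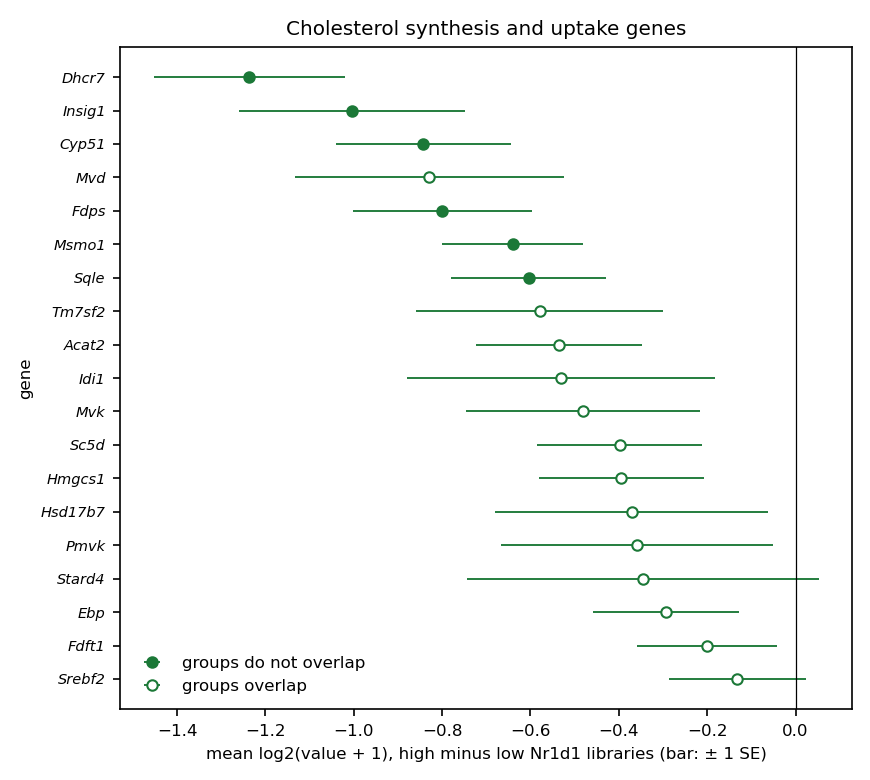
Difference between the groups, as mean log2(value + 1) in the high minus the low libraries, for 19 of the 23 cholesterol genes compared. Bars are ± 1 SE, and filled points are genes whose groups do not overlap. Every gene drawn lies left of 0, from Dhcr7 at -1.24 to Srebf2 at -0.13, and 6 are filled.

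In other lipid and fasting lists 2 members each were parted, beside 3.13% of all genes parted and 49.5% below 0. Plin2 coats lipid droplets and measured 4553, 6924 and 5211 against 8237 to 14236 (median 10661), a difference of -0.97 ± 0.22. Pck1, the cytosolic enzyme of glucose production and among the most abundant messages of proximal tubule, stood at 122789, 199780 and 195766 against 210625 to 296138 (median 264182). Its difference was -0.60 ± 0.19, the gap was 1.05-fold, and the groups overlapped when scaled to the same total. They were the 2 parted members of 14 fasting response genes, of which 7 were above 0 and 7 below, and Sesn1 was parted higher under the same total. In the lipogenesis list of 14 genes, 2 were parted, both lower. They were Fads1 and Fads2, the delta-5 and delta-6 desaturases of polyunsaturated fatty acids. Fads1 measured 3199, 2868 and 4140.4 against 4721 to 7429 (median 6551), a difference of -0.91 ± 0.17, and Fads2 had -0.53 ± 0.18. All 15 fatty acid oxidation genes lay below 0, with a median of -0.32, and 2 were parted narrowly. Those were the carnitine carrier gene Slc25a20 with -0.46 ± 0.15 and Hadhb, a subunit of the trifunctional enzyme, with -0.27 ± 0.13, and Hadhb overlapped under the same total. In that scaling 14 of the 15 oxidation genes lay below 0, with a median of -0.19 beside 0.127 for all genes. Leaving out replicate 4 gave 4 parted lipogenesis genes, and leaving out replicate 2 or 3 gave 4 parted oxidation genes, all lower. Of all genes, 329, 531 and 708 were parted lower without replicates 4, 2 and 3, beside 264 with every library. All 15 oxidative phosphorylation genes lay below 0 too, with a median of -0.24, but none was parted, and 12 stayed below 0 when scaled to the same total. Without replicate 1, 3 of the 15 were parted lower, when 864 of all genes were lower.

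Heat shock genes were listed because some follow body temperature through the day. Of 15 compared, 14 lay below 0 with a median of -0.31, beside 49.5% of all genes below 0. The 2 parted genes were both lower, beside 1.93% of all genes, and without replicate 3 there were 9 parted lower. Leaving out that replicate also raised the genes parted lower from 264 to 708 over all genes. Fkbp4, a cochaperone of HSP90 in steroid receptor complexes, measured 5079.8, 3932 and 4921 against 6461 to 10590.5 (median 7675), a difference of -0.78 ± 0.18. Bag3, a cochaperone of HSP70, measured 1565, 1933 and 1993 against 2162 to 3685 (median 2505), a difference of -0.60 ± 0.19. Hsp90aa1 and Hspa8 overlapped, with replicate 3 high in both at 15899 and 39097. Scaled to the same total, 11 of 15 lay below 0 and the same 2 were parted.

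The windows of Fkbp4 and Bag3, the parted heat shock genes, both hold the motif GAANNTTC, the inverted pair of heat shock units, as do 7.23% of all listed windows on either strand and those of 5.09% of compared genes. The E-box motif lies in the windows of Lonrf3, Plin2 and Insig1, genes that were lower in the high Nr1d1 libraries. They are shown because E-boxes thus stand in genes of both directions, with the motif in capitals.
Fkbp4 (chr4:163398028-163398075, minus strand): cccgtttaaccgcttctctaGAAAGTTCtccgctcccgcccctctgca
Bag3 (chr1:192533308-192533355, plus strand): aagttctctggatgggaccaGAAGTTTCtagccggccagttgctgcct
Lonrf3 (chrX:120430928-120430973, plus strand): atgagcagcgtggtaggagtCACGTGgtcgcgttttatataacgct
Plin2 (chr5:106229060-106229105, minus strand, 1 of 2 listed starts): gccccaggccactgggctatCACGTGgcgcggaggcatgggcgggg
Insig1 (chr4:8057823-8057868, minus strand): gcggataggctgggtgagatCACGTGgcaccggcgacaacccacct
The D-box motif TTANGTAA, found in 2.04% of listed windows on either strand and in those of 1.20% of compared genes, was in the window of Acot5. The sterol motif TCACNCCAC, found in 0.974% and 1.06%, was in none of the 5 matched windows of parted cholesterol genes, which says only that these letters are not there. Of the 427 parted genes 316 were matched to a window, and 9.49% of these hold the E-box motif, beside 8.47% of compared genes. The heat shock pair was in 4.75% beside 5.09%. For the D-box motif the shares were 2.22% and 1.20%, and for the sterol motif 0.949% and 1.06%. Nothing is read from these shares.

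Several other lists, only some of them of processes known to follow the day, held no parted gene, beside 3.13% of all genes. Nothing is read from a count of 0 in lists this short. Of 11 glucocorticoid targets and receptors none was parted. Zbtb16, a strongly steroid-induced gene, had a difference of 1.41 ± 0.54, at 361, 717 and 380.2 against 48.9 to 413 (median 188), and Fkbp5 had 0.36 ± 0.17. Sgk1, a kinase that raises sodium transport, had -0.41 ± 0.20. None of 3 cold-inducible RNA binding genes was parted, with Cirbp at 0.43 ± 0.24 and Rbm3 at 0.29 ± 0.16. Among 7 genes rhythmic in many tissues none was parted, although Usp2, a deubiquitinase gene, came close. Its lowest high library, replicate 3, stood at 1586.5 and its highest low library, replicate 7, at 1587.3. Cdkn1a, the p21 gene, overlapped at 278, 218 and 117 against 243 to 846 (median 447). None was parted among 18 sodium, water and phosphate transport genes, 19 drug handling genes, 16 immediate early genes, 10 cell cycle genes, 12 interferon genes or 6 MHC class II genes. Scaled to the same total per library, Fkbp5, Rbm3, Usp2 and the replication gene Mcm4 of the cell cycle list were parted higher. With 1 replicate left out, at most 2 genes of any of these lists were parted, beside 458 to 1461 of all genes.

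**Figure D5:**
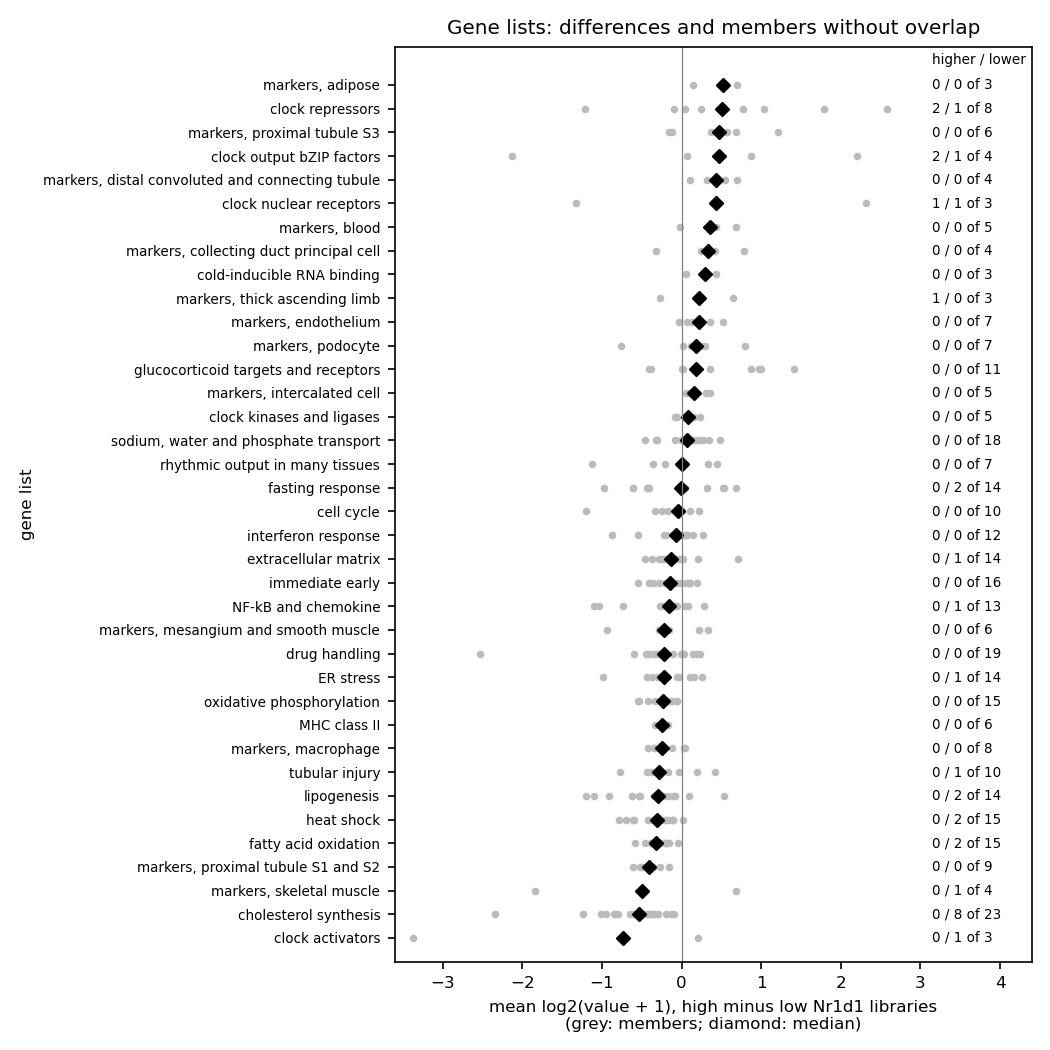
Difference between the groups, as mean log2(value + 1) in the high minus the low libraries, for the members (grey) and median (diamond) of every list with at least 3 genes compared. The right column counts members that were parted higher and lower of those compared. The cholesterol list has 8 parted lower, while most marker lists have 0 parted.

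Single members of 4 other lists were parted lower by narrow gaps, and beside 3.13% of all genes nothing is read from 1 gene a list. They were Creld2 of 14 ER stress genes with -0.26 ± 0.12, Col4a1 of 14 extracellular matrix genes with -0.46 ± 0.15, Vcam1 of 10 tubular injury genes with -0.38 ± 0.16 and Icam1 of 13 NF-kB and chemokine genes with -0.19 ± 0.12. None of these gaps reached 1.05-fold, and all 4 genes overlapped when libraries were scaled to the same total, where Herpud1 of the ER stress list was parted higher instead. Without replicate 1, 4 extracellular matrix, 4 tubular injury and 3 NF-kB and chemokine genes were parted lower, when 864 of all genes were lower. Without replicate 3, 7 of the ER stress genes were parted lower and 2 higher, when 708 of all genes were lower and 558 higher.

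Of 74 markers compared, for cell types of kidney cortex and medulla and for blood, adipose, adrenal and skeletal muscle tissue, 2 were parted, or 2.7%, beside 3.13% of all genes. Slc12a1, the sodium transporter of the thick ascending limb, was higher at 20016, 21695 and 19112 against 9469 to 18543 (median 13045), with a gap of 1.03-fold. Umod, from the same cells, overlapped with a difference of 0.22 ± 0.21. Of the 3 markers of this limb compared, 2 lay above 0 and 1 below. The 1 below 0 was parted lower without replicate 1. Acta1 was the other parted marker, and Mylpf, also of skeletal muscle, overlapped at 13.2 to 19.9 in the high and 10.4 to 41.9 in the low libraries. Without replicate 1, 3 of 6 mesangium and smooth muscle markers and 2 of 8 macrophage markers were parted lower, when 864 of all genes were lower. Without replicate 2, 2 markers each of intercalated and collecting duct principal cells were parted higher and 2 of the S1 and S2 proximal tubule lower. In that setting 443 of all genes were parted higher and 531 lower. All 9 markers of the S1 and S2 proximal tubule lay below 0 without parting, with a median of -0.41. Their summed values were 175400 to 237161 in the high and 203013 to 311803 in the low libraries. Scaled to the same total per library, all 9 stayed below 0, with a median of -0.28. Markers of the S3 proximal tubule went mostly the other way. Of 6 compared, 4 lay above 0 and 2 below, with a median of 0.47 and 0 parted. All 4 markers of the distal convoluted and connecting tubule and all 5 of intercalated cells lay above 0. The part of these levels in the differences of Pck1, the fatty acid oxidation genes and cholesterol genes was not tested. In bulk tissue, fewer cells of a type and less RNA per cell cannot be told apart.

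The label kidney cortex was checked against markers. In all 9 libraries Slc34a1 of the proximal tubule stood at 52253 or more, Umod of the ascending limb at 40353, Calb1 of the distal tubule at 12746 and Podxl of podocytes at 4256. Of 8 lymphocyte genes 7 were matched, and those other than Cd4 were under a mean of 10. Cd79a, Lrp2, Aqp2, Pecam1 and Acta2 were not matched by name and not analysed here. Reads in genes ran from 10757440 to 26610593 in the high and from 16486266 to 43071223 in the low libraries. The share of reads outside genes was 30.02% to 31.3% in the high and 22.03% to 30.9% in the low libraries. Reads aligned to more than 1 place made 14.9% to 19.2% and 15.2% to 22.1%. These measures overlapped between the groups, and their part in single differences was not tested beyond the alternatives given in the closing section.

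The members of the glucocorticoid, rhythmic, cold-inducible, heat shock and cholesterol lists given above that were not among the widest 2 of their list, and the other parted genes that follow, were chosen after their values were seen. Slc16a1 encodes the lactate and ketone transporter MCT1. It stood at 719.8, 2331 and 1644 in the high libraries and 2753 to 9251 (median 6542) in the low, a difference of -2.01 ± 0.41. Ptgs2, the inducible cyclooxygenase gene known in the macula densa, was higher at 799, 1187 and 1071 against 111 to 762.5 (median 238), a difference of 1.94 ± 0.51. In Ptgs2 the gap was 1.05-fold, set by replicate 4 at 762.5, while the other low libraries ended at 459. Epm2a, the laforin gene of glycogen metabolism, was higher by 1.35 ± 0.40 and S100b by 1.48 ± 0.35. Tubb3, a tubulin gene, was lower at 2.06, 5.44 and 3.98 against 6.51 to 19.8 (median 14.7), near the limit of reliable counting.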

How the data were processed

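Messenger RNA of 9 kidney cortex samples was measured with a stranded library kit, per the labels' protocols. Per the submitters' processing notes, quality was read with FastQC 0.11.2 and MultiQC 0.9, and HTSeq 0.6.1p1, DESeq2 and the build Rnor_5.0 are also named. The aligner is not given in the sources used here. Each deposited value is a normalized signal: the authors divided the reads of a gene by a size factor, so that 1 read is worth 0.544 to 1.99. Whole reads were recovered from these steps, with 100% of nonzero values no further than 0.1 read from a whole multiple.

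The table held 18423 rows. The 3 rows that name no gene (reads outside genes, in more than 1 gene, or aligned to more than 1 place) were left out of the comparison, as was Nr1d1. They held 22.03% to 31.3%, 0.0910% to 0.129% and 14.9% to 22.1% of all reads counted in a library. A further 2364 rows carry only an Ensembl identifier, and 23 carry a date in place of a symbol. Genes with a mean value of at least 10 were compared as log2 of the value plus a pseudocount of 1. Differences and SE came from limma 3.58.1 (trend and robust) in R 4.3.3, with p-values adjusted by the Benjamini-Hochberg method. As alternatives, edgeR 4.0.16 (quasi-likelihood) and DESeq2 1.42.0 were run on the recovered reads. The calculation was tested on simulated data.

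The groups come from the measured Nr1d1 value, and the members, lists and rules were chosen with earlier results of these data known. The 41 gene lists held 439 genes, of which 381 were matched by symbol and 346 compared. Named genes were all clock genes, the 15 parted genes with the widest gap in each direction, the 2 widest in every other list, and the most abundant marker of each cell type. The 15 were taken outside the clock lists, among genes with a symbol, leaving out systematic names and dates. Single values for a few of these genes are not reported here, though they are included in the counts. Library depth was 10757440 to 43071223 reads in genes. Where nothing says that replicates are separate animals, their spread may be technical. Alternatives changed the pseudocount (0.5 and 5), the minimum mean (1 and 100), the scaling (TMM, or the same total per library) and the covariate (the percentage of multiply aligned reads), or left out each replicate.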

Additional observations from a re-analysis of the deposited data

Results flagged for a closer look

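Of 80 measures checked over the 9 libraries, 7 had a single library far from the nearest other one, with a gap to it above 0.493 of the whole range. Chance flags about 1 in 20 sets of values by this test when all come from a single normal distribution. The libraries here pool both Nr1d1 groups, and many of the genes were named for parting them, so that rate need not hold. Ciart stood at 203.0 in replicate 3, with the next library at 102.5. Btrc stood at 660.9 in replicate 3, with the next at 544.1. Ccdc158 stood at 59.7 in replicate 3, with the next at 38.8. Ebf4 stood at 77.1 in replicate 1, with the next at 57.7. Hsd11b2, the enzyme that guards the mineralocorticoid receptor in collecting duct, stood at 15356 in replicate 1, with the next at 8803. Star stood at 33.4 in replicate 2, with the next at 23.4. The share of reads outside genes was lowest in replicate 5, at 22.03%, with the next at 27.2%.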

How the results depend on the processing

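All 52 parted named genes kept the sign of their difference under the 18 settings run, including edgeR and DESeq2. For a parted gene the sign cannot change when a library is left out or the pseudocount or minimum mean is changed. Only the scalings, the covariate, edgeR and DESeq2 could have reversed it. No paired analysis was possible because the groups are parts of 1 labelled group and share no replicate numbers. Genes parted higher, 163 as reported, ranged from 184 to 597 when each replicate was left out, and genes parted lower, 264 as reported, from 274 to 864. Leaving out a library can only add parted genes. The higher count was 597, 443, 558, 279, 316 and 247 without replicate 1, 2, 3, 4, 6 and 9, and the lower count 864, 531, 708 and 462 without replicate 1, 2, 3 and 6. With gaps of at least 1.5-fold, genes higher ranged from 5 to 18, with 10, 9, 18 and 11 without replicate 1, 2, 3 and 4, and genes lower from 12 to 33, with 25 and 33 without replicate 1 and 2. Parted clock genes ranged from 9 to 10 and parted cholesterol genes from 8 to 11. The limma count of 8 ranged from 0 to 4 with a replicate left out. It was 0 without replicate 2, 3, 4, 5, 6 or 8, 2 without replicate 1, and 4 without replicate 7 or 9, with 460 to 1142 genes at an unadjusted p under 0.05. With the same total per library, 385 genes were parted higher and 121 lower and limma called 0, with 933 at an unadjusted p under 0.05, and 273 of the 427 genes remained parted in the same direction. Under TMM scaling 393 did. A minimum mean of 100 left 3 genes higher with a gap of at least 1.5-fold and 2 limma calls, and a minimum mean of 1 gave 24 genes lower with such a gap. Adjusting for the percentage of multiply aligned reads gave 21 calls, edgeR 3 and DESeq2 51. The causes were not tested. Depth limits genes such as Acta1, Stox1 and Tp73, where 1 or more libraries gave few reads.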
